A study of Mus musculus with 32 samples.

Results

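The TGFβ response of the polysomal RNA pool of E1KD cells was measured on 4 arrays out of the 32 of the series. E1KD is a derivative of NMuMG, an immortalised mouse mammary gland epithelial line, in which hnRNP E1 (encoded by Pcbp1) was knocked down, and the sources used here do not say whether it is a single clone. The 4 arrays were chosen by their labels alone, 2 from E1KD cells given TGFβ2 at 5 ng/ml for 24 h and 2 from untreated E1KD control cells. All 4 hold RNA from the polysomal fractions of a sucrose gradient, and the monosomal fractions were not used. For comparison, 4 arrays of unfractionated total RNA from E1KD cells and 4 of polysomal RNA from parental NMuMG cells were read, each with 2 TGFβ and 2 control arrays and the same treatment. The labels call the 2 arrays of a group biological replicates, and the study's methods speak of 2 independent samples per condition. No source used here says that each had its own culture. The p-values then measure only the spread between these arrays, which may be technical. It is also not stated whether total and polysomal RNA were taken from the same dishes.

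An mRNA that is being translated by several ribosomes sediments in the heavy, polysomal fractions of a gradient. A change of polysomal RNA can therefore follow a change of the transcript's abundance, of its ribosome loading, or of both, which total RNA beside it helps to describe. TGFβ signals through Smad and other pathways and drives epithelial to mesenchymal transition (EMT) in NMuMG cells. hnRNP E1 is a poly(C)-binding protein known to hold some EMT transcripts out of translation until TGFβ signalling releases them. E1KD cells are described by the study as mesenchymal without TGFβ, and the TGFβ change of their polysomal pool is that of cells in which this brake was already reduced.

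Values are RMA signals on the log2 scale, where 1 unit is a doubling, and a change is the mean of the TGFβ arrays less that of the control arrays. Replicate arrays of the E1KD polysomal groups correlated at r = 0.989 for each group across the 25765 probe sets kept, and the SD between replicates was 0.229 in the control and 0.222 in the TGFβ group. It lay between 0.119 and 0.149 in the 4 total RNA groups and between 0.204 and 0.277 in the 4 polysomal groups of both lines. The knockdown was visible in its target. Pcbp1 read 9.98 and 10.07 in the E1KD polysomal controls and 9.13 and 9.25 with TGFβ, against 13.15 to 13.25 in the 4 NMuMG polysomal arrays. The E1KD change of Pcbp1 was -0.84 ± 0.13 (SE, n = 2 per group, limma adjusted p = 0.0971), so its arrays did not overlap but the change missed the threshold. In E1KD total RNA Pcbp1 fell by 1.38 (limma adjusted p = 2.95e-06). Some markers of each kind were high in E1KD polysomes. Krt8, a simple epithelial keratin, read 14.15 to 14.25 and Vim, the mesenchymal filament vimentin, 14.02 to 14.11. Levels varied within each kind, with the epithelial Cdh1 at 10.84 to 11.27 and Epcam at 6.62 to 7.09, and the mesenchymal Acta2 at 9.10 to 9.47. The leukocyte marker Ptprc read 3.40 to 3.72, the adipocyte marker Adipoq 3.69 to 4.26 and the endothelial marker Cdh5 4.69 to 5.30, all under the filter level of 5.53. Cd3e, Kdr and Des, markers of T cells, endothelium and muscle, passed the filter and lay between 5.66 and 7.35 with overlapping groups.

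The question was which transcripts rose or fell in the polysomal pool when E1KD cells met TGFβ. The change was small. Of 25765 probe sets, 17 (0.066%) passed an adjusted p of 0.05 in limma, 9 higher (0.0349%) and 8 lower (0.031%), while 3466 (13.5%) had an unadjusted p under 0.05. The called probe sets stood for 11 genes, 5 higher and 6 lower, with 3 further probe sets that carry no single gene symbol. A gene counts here if any of its probe sets passed. With each gene read by its brightest probe set alone, 8 of 12607 genes (0.0635%) passed. Without a test, 117 probe sets (0.454%) were at least 2-fold higher and 32 (0.124%) at least 2-fold lower. In E1KD total RNA 767 (2.98%) and 505 (1.96%) were, and in NMuMG polysomal RNA 1207 (4.68%) and 385 (1.49%). Across 12607 genes the SD of the change was 0.30 in E1KD polysomes, 0.49 in E1KD total RNA and 0.54 in NMuMG polysomes. The count depended on the arrays fitted. It was 1 when the 4 E1KD polysomal arrays were fitted alone and 1731 (6.72%, with 1175 or 4.56% higher and 556 or 2.16% lower) when the total RNA arrays, whose replicates lay closer, were fitted with the polysomal ones, which also raised the residual degrees of freedom from 4 to 8. Centring each array on its Actb and Gapdh control probe sets moved the median of all genes by 0.12 and gave 61 calls, 52 higher and 9 lower, and quantile normalization gave 5, 1 higher and 4 lower.

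**Figure D1:**
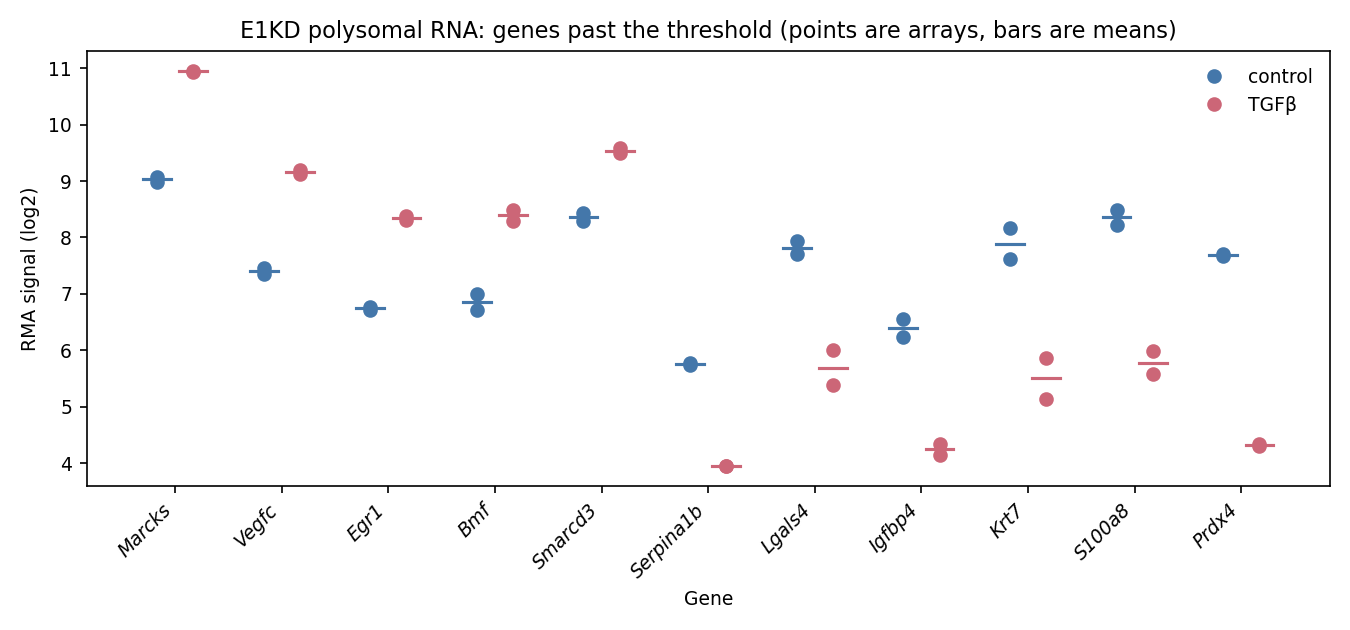
RMA signal (log2) of the 11 genes past the threshold in the 2 control (blue) and 2 TGFβ (red) arrays of E1KD polysomal RNA, each point an array and each bar the mean of its group. The groups of no gene overlap, the fall of Prdx4 from 7.69 to 4.32 is the widest gap, and the lower genes end between 3.95 and 5.78, close to or under the filter level of 5.53.

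Among the genes that rose were a secreted growth factor, an immediate early transcription factor and a cell death gene. All 5 also rose in E1KD total RNA, Vegfc by 1.23, Marcks by 1.41, Egr1 by 1.54, Bmf by 0.62 and Smarcd3 by 0.69 (limma adjusted p up to 0.00324). Vegfc, the lymphangiogenic growth factor, read 7.36 and 7.45 in the control and 9.13 and 9.20 with TGFβ (probe set 1419417_at). Both TGFβ arrays lay above both controls, a change of 1.76 ± 0.15 or 3.39-fold (SE, n = 2 per group, limma adjusted p = 0.0195). A second Vegfc probe set passed with a change of 1.57 and the remaining one stood at 1.48 (limma adjusted p = 0.0636). Marcks, a membrane-bound substrate of protein kinase C that binds actin, read 9.07 and 8.99 in the control and 10.96 and 10.93 with TGFβ (1456700_x_at). Its groups were far apart and its replicates close, with a change of 1.91 ± 0.15 or 3.77-fold (SE, n = 2 per group, limma adjusted p = 0.0122). Of the 7 Marcks probe sets kept, all had a positive change, from 0.48 to 1.91, and 2 passed. The brightest, at 0.88, did not.

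Egr1, a zinc finger transcription factor induced early by growth factors, read 6.72 and 6.77 in the control and 8.31 and 8.38 with TGFβ (1417065_at). The gap between the groups was many times that between replicates, a change of 1.60 ± 0.16 or 3.03-fold (SE, n = 2 per group, limma adjusted p = 0.0343). Bmf, a BH3-only member of the Bcl-2 family that promotes apoptosis, read 6.72 and 7.0 in the control and 8.30 and 8.48 with TGFβ (1454880_s_at). Its change was 1.53 ± 0.16 or 2.89-fold (SE, n = 2 per group, limma adjusted p = 0.0346), and its other probe set stood at -0.27 (limma adjusted p = 0.644), so the probe sets of this gene disagreed. Smarcd3, a subunit of SWI/SNF chromatin remodelling complexes, read 8.29 and 8.43 in the control and 9.50 and 9.58 with TGFβ (1418467_at). Its groups were apart by 1.18 ± 0.13 or 2.27-fold (SE, n = 2 per group, limma adjusted p = 0.0483), close to the threshold.

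The genes that fell were led by Prdx4, a peroxiredoxin of the secretory pathway. It read 7.71 and 7.67 in the control and 4.31 and 4.33 with TGFβ (1416167_at). With replicates within 0.04 of each other the groups lay far apart, and the change of -3.37 ± 0.14 (SE, n = 2 per group, limma adjusted p = 5.26e-04) had the smallest p of all probe sets. With TGFβ, Prdx4, Igfbp4 and Serpina1b lay under the filter level of 5.53 on both arrays, where signal and background are not told apart, so the size of their fall depends on that floor. The other Prdx4 probe sets stood at -1.76 (limma adjusted p = 0.133) and 0.08 (limma adjusted p = 0.866). Krt7, a keratin of simple and glandular epithelia, read 7.62 and 8.16 in the control and 5.14 and 5.87 with TGFβ (1423952_a_at). Its replicates were the widest of the 11 genes, but its groups did not overlap, with a change of -2.38 ± 0.26 or 5.22-fold (SE, n = 2 per group, limma adjusted p = 0.047). Igfbp4, a secreted binding protein of insulin-like growth factors, read 6.24 and 6.55 in the control and 4.15 and 4.34 with TGFβ (1423756_s_at). Its change was -2.15 ± 0.16 (SE, n = 2 per group, limma adjusted p = 0.0119), a second probe set passed at -1.98, and the other 4 stood between -0.48 and 0.25 without passing.

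Lgals4, a galectin of epithelia, read 7.71 and 7.93 in the control and 5.38 and 6.0 with TGFβ (1451336_at). The groups were apart by -2.13 ± 0.21 or 4.38-fold (SE, n = 2 per group, limma adjusted p = 0.0314). Serpina1b, of the alpha-1-antitrypsin family, read 5.78 and 5.73 in the control and 3.95 and 3.94 with TGFβ (1451513_x_at). The change was -1.81 ± 0.13 (SE, n = 2 per group, limma adjusted p = 0.0119), and since this family has near-identical copies the probe set may read several of them. S100a8, a calcium-binding protein also known as a calgranulin, read 8.22 and 8.49 in the control and 5.58 and 5.98 with TGFβ (1419394_s_at). Its groups did not overlap and the change was -2.58 ± 0.20 or 5.96-fold (SE, n = 2 per group, limma adjusted p = 0.0119). Prdx4 alone of the 11 genes stayed past the threshold in each of the 19 alternative fits, with limma adjusted p up to 0.0434. When 1 of the 4 E1KD polysomal arrays was left out in turn, 1 to 3 probe sets passed, Prdx4 each time and Lgals4 once, while the other 9 genes passed none of those fits with limma adjusted p up to 0.401.

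The levels of the genes that fell were set apart by cell line as well as by TGFβ. In the NMuMG polysomal controls Prdx4 read 11.29 and 11.50, Krt7 11.16 and 11.11, Igfbp4 10.16 and 10.39. Lgals4 read 13.67 and 13.65 there and Serpina1b 13.05 and 13.28. All 5 were thus over 3 log2 units higher in the parental line than in E1KD controls, as was Pcbp1, whereas S100a8 was lower in the NMuMG controls at 7.59 and 7.21. In E1KD total RNA Prdx4 fell by 4.42, Krt7 fell by 3.46 and Igfbp4 fell by 2.02, each past the threshold (limma adjusted p up to 9.30e-06). Lgals4 fell there by 0.69 (limma adjusted p = 0.0231) and Serpina1b fell by 0.58 (limma adjusted p = 0.00169), so 5 of the 6 genes fell in both pools. Whether the share of cells that kept parental levels differed between the control and the TGFβ cultures was not tested, and fewer cells of a kind and less RNA per cell cannot be told apart in bulk samples.

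Genes known to respond to TGFβ leaned upward by a small amount in the E1KD polysomal pool. In E1KD total RNA their median change was also small at 0.30, with 13 of 30 called higher and 5 lower (13.8% and 13% of all genes). Of 30 measured TGFβ-induced genes none passed in limma (8 of 12607 genes or 0.0635% did among all, each gene read by its brightest probe set). Their median change was 0.24 against 0.01 for all genes, and in 15 of 30 both TGFβ arrays lay above both controls, against 26.2% of all genes. Il11, a cytokine of the IL-6 family, read 6.48 and 6.75 in the control and 7.79 and 8.31 with TGFβ, a change of 1.44 (limma adjusted p = 0.0834). Pmepa1, a feedback inhibitor of TGFβ signalling, read 12.21 and 12.08 against 12.89 and 12.83, a change of 0.72 (limma adjusted p = 0.12). Both had groups that did not overlap and missed the threshold, and in the fit of 16 arrays 7 of the 30 genes were called higher and 2 lower (5.18% and 2.45% of all genes).

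Among EMT regulators and markers, the 10 measured EMT transcription factors had a median change of 0.27 with none called, and 8 of the 10 had TGFβ arrays above both controls (26.2% of all genes). Over all kept probe sets of these genes the median was 0.14. Twist2, a bHLH regulator of EMT, read 5.35 and 5.16 in the control and 6.15 and 6.49 with TGFβ, a change of 1.07 (limma adjusted p = 0.136). Snai1, another EMT regulator, lay near the filter level with 5.62 and 5.28 in the control and 5.38 and 5.29 with TGFβ, and its groups overlapped. Fn1, the matrix protein fibronectin, read 12.38 and 12.35 in the control and 11.78 and 11.83 with TGFβ. Both of its TGFβ arrays were lower, a change of -0.56 ± 0.13 (SE, n = 2 per group, limma adjusted p = 0.178). Vim read 14.03 and 14.02 against 14.11 and 14.06, a change of 0.06 (limma adjusted p = 0.876), and Cdh2, N-cadherin, had overlapping groups with a change of -0.13 (limma adjusted p = 0.863). Tjp1, the tight junction protein ZO-1, read 9.39 and 9.25 against 9.17 and 9.14, a change of -0.16 (limma adjusted p = 0.737). The 18 mesenchymal markers had a median of -0.09 and the 44 epithelial junction and identity genes one of -0.01, with Krt7 the single gene called in either list.

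Of 35 immediate early, Hippo and AP-1 genes, 18 had TGFβ arrays above both controls and 9 had them below, against 26.2% and 22.3% of all genes, and Egr1 alone passed. Their median change was 0.19, and 0.06 over all kept probe sets of these genes. Myc, the growth-promoting transcription factor, read 9.13 and 9.06 in the control and 9.67 and 9.65 with TGFβ, a change of 0.56 (limma adjusted p = 0.159). Fosl1, an AP-1 subunit, read 7.86 and 7.67 in the control and 7.23 and 7.24 with TGFβ, a change of -0.53 (limma adjusted p = 0.21). So single members of this list stood on either side of 0 with groups that did not overlap. The 31 growth factors and receptors had a median of 0.20, and 0.04 over all their kept probe sets, with Vegfc called and Pdgfa, a ligand of the PDGF receptors, at 9.34 and 9.46 against 10.31 and 10.41, a change of 0.96 (limma adjusted p = 0.141).

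The genes of the translation machinery, which sit at the top of the signal range, hardly moved. The 43 cytosolic ribosomal protein genes had changes from -0.22 to 0.31 with a median of 0.02, and the 46 translation factors a median of 0.01, with none called in either list. The 69 oxidative phosphorylation genes leaned downward as a group. Both TGFβ arrays lay below both controls in 47 of 69 (22.3% of all genes), at a median of -0.13 and with none called. Ndufa12, a complex I subunit, read 12.85 and 12.68 in the control and 12.33 and 12.31 with TGFβ, a change of -0.44 (limma adjusted p = 0.236). Of the 59 actin cytoskeleton genes 30 had TGFβ arrays below both controls, at a median of -0.08. With centring on Actb and Gapdh the median of oxidative phosphorylation genes was -0.02 and that of actin genes 0.03, against 0.12 for all genes, so both stayed below all genes while the sign of the actin median turned, as did that of the mesenchymal markers at 0.03.

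**Figure D2:**
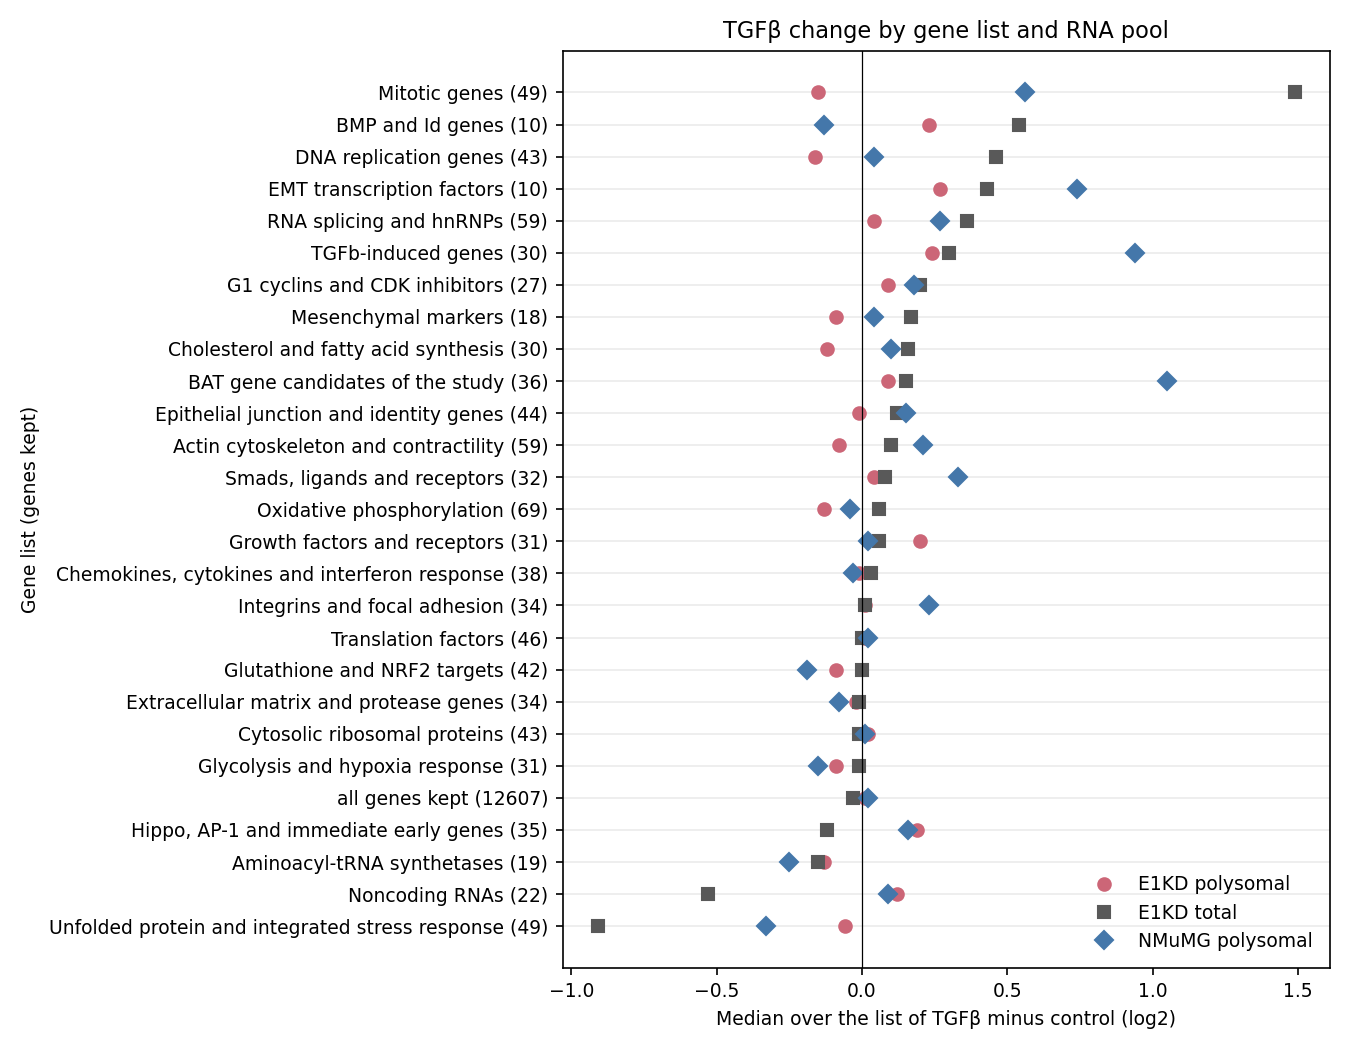
Median over each of the gene lists plotted (genes kept in brackets, lists of cell type markers, poly(C)-binding proteins and names in the study text left out) of the TGFβ minus control change (log2) in E1KD polysomal (red circles), E1KD total (grey squares) and NMuMG polysomal RNA (blue diamonds), 2 arrays per group. Plotted medians in E1KD polysomal RNA lie between -0.16 and 0.27, while in E1KD total RNA mitotic genes reach 1.49 and unfolded protein and stress response genes -0.91.

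The polysomal change was next set against that of total RNA from the same line, which asks where the polysomal pool did not follow transcript abundance. In E1KD total RNA 6367 of 25765 probe sets (24.7%) passed, 3484 higher (13.5%) and 2883 lower (11.2%). The change differed between the pools for 3749 probe sets (14.6%) by the interaction test in limma, with 2004 (7.78%) higher and 1745 (6.77%) lower in polysomal than in total RNA, and for 4672 and 938 with centring on Actb and Gapdh. Over 12607 genes, which are not independent replicates and share the normalization, the change in polysomal RNA correlated with that in total RNA at r = 0.23 with a slope of 0.14. The 1744 genes higher in total RNA had a median change of 0.66 there and 0.14 in polysomes, and 67.6% of them lay above 0 in polysomes against 51.6% of all genes. The 1644 genes lower in total RNA had medians of -0.60 there and -0.03 in polysomes, and 54% of them lay below 0 in polysomes against 47.9% of all genes. RNA quality moved with TGFβ in the total RNA arrays. The Actb 3′ less 5′ control signal was 0.59 and 0.61 in total control arrays and 0.39 and 0.47 with TGFβ, against 0.55 to 0.69 in the 4 polysomal arrays, and its part in these differences was not tested.

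**Figure D3:**
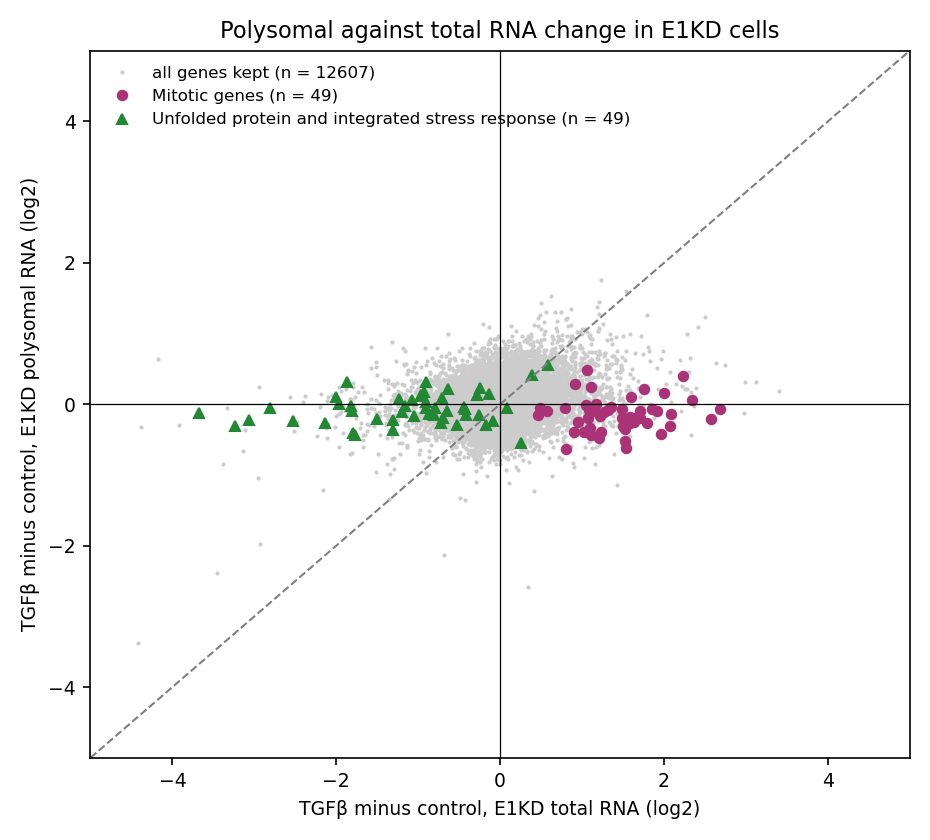
TGFβ minus control change (log2) of each gene in E1KD total RNA (horizontal) and E1KD polysomal RNA (vertical), with 12607 genes in grey, 49 mitotic genes as purple circles and 49 unfolded protein and integrated stress response genes as green triangles. The dashed line marks equal change, and both lists spread along the horizontal axis while staying near 0 on the vertical one.

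Mitotic genes rose in total RNA and not in polysomes. All 49 measured mitotic genes were called higher in E1KD total RNA (13.8% of all genes were), at a median of 1.49, while in the polysomal pool none was called and the median was -0.15. Both TGFβ polysomal arrays lay below both controls in 25 of 49 (22.3% of all genes). In the 16-array fit, which the total RNA calls use, 1 was called higher and 3 lower in polysomes (5.18% and 2.45% of all genes). The interaction test found 48 of 49 lower in polysomal than in total RNA (7.1% of all genes). Plk1, a kinase of mitotic entry, read 8.24 and 8.47 in polysomal control arrays and 7.92 and 8.37 with TGFβ, against 7.82 and 7.95 and then 10.49 and 10.44 in total RNA. The polysomal groups overlapped and the total RNA groups did not, and the changes differed by -2.79 ± 0.29 (SE, n = 2 per group, limma adjusted p = 1.68e-04). Mki67, the proliferation antigen Ki-67, read 8.03 and 7.91 in polysomal control arrays and 7.56 and 7.76 with TGFβ, against 9.98 and 10.01 and then 12.04 and 12.08 in total RNA. Its changes differed by -2.38 ± 0.16 (SE, n = 2 per group, limma adjusted p = 7.29e-06). Kif20a, a mitotic kinesin, read 6.13 and 6.07 in polysomal control arrays and 6.04 and 6.05 with TGFβ, while in total RNA it went from 6.80 and 7.07 to 9.56 and 9.67, a difference between the changes of -2.74 ± 0.19 (SE, n = 2 per group, limma adjusted p = 8.71e-06). Leaving out any 1 of the 8 arrays left 40 to 45 of the mitotic genes lower by the interaction test. Plk1, Kif20a, Mki67 and the other examples named from whole lists in this and the next comparison were chosen after their values were seen, as the members with the widest difference.

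DNA replication genes showed a like pattern on a smaller scale. Of 43, 24 were called higher in total RNA (13.8% of all genes) and 21 lower in polysomal than in total RNA (7.1%), with medians of 0.46 in total RNA and -0.16 in polysomes. Rrm2, a subunit of ribonucleotide reductase, read 9.18 and 9.19 in polysomal control arrays and 9.23 and 9.41 with TGFβ, against 10.20 and 10.32 and then 12.33 and 12.18 in total RNA. The changes differed by -1.86 ± 0.17 (SE, n = 2 per group, limma adjusted p = 5.93e-05). Of 59 splicing factor and hnRNP genes, 32 were called higher in total RNA (13.8% of all genes) and 15 lower in polysomal than in total RNA (7.1%). Leaving out 1 array gave 15 to 19 and 6 to 16. Hnrnpd, the AU-rich element binding protein AUF1, changed by 0.24 in polysomes and 1.15 in total RNA, a difference of -0.92 ± 0.15 (SE, n = 2 per group, limma adjusted p = 0.00247). With centring on Actb and Gapdh, 4 of the splicing genes were lower and 5 higher in polysomal than in total RNA. That centring shifted all probe sets upward, with 938 of 25765 called lower and 4672 higher. Of all calls 83.3% were then higher, against 53.5% without it, so the list's counts cannot be read without that shift.

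The opposite held for genes of the unfolded protein and integrated stress responses, which fell in total RNA and kept near their level in polysomes. Of 49, 41 were called lower in total RNA (13% of all genes), at a median of -0.91. None was called in polysomes, at a median of -0.06 (0.06 with Actb and Gapdh centring). Both TGFβ polysomal arrays lay below both controls in 24 of 49 (22.3% of all genes). In the 16-array fit, which the total RNA calls use, 2 were called higher and 2 lower in polysomes (5.18% and 2.45% of all genes). By the interaction test 36 were higher in polysomal than in total RNA (9.03% of all genes). Ddit3, the stress-induced transcription factor CHOP, read 13.03 and 13.01 in polysomal control arrays and 12.89 and 12.89 with TGFβ, against 13.45 and 13.54 and then 9.81 and 9.84 in total RNA. Total RNA fell far while the polysomal arrays moved little, and the changes differed by 3.54 ± 0.12 or 11.6-fold (SE, n = 2 per group, limma adjusted p = 3.08e-08). Ppp1r15a, which recruits the phosphatase of eIF2α, read 10.09 and 10.13 in polysomal control arrays and 10.03 and 10.10 with TGFβ, against 11.63 and 11.65 and then 8.83 and 8.83 in total RNA. Its changes differed by 2.77 ± 0.13 (SE, n = 2 per group, limma adjusted p = 1.24e-06). Atf3, a stress-induced transcription factor, changed by -0.22 in polysomes and -3.06 in total RNA, and Sdf2l1, an endoplasmic reticulum protein, by -0.31 and -3.24. Both differences passed (limma adjusted p = 2.45e-06 for each), and 32 to 35 of the list passed when any 1 of the 8 arrays was left out.

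The 2 genes that follow had a large change in total RNA beside a small one in polysomes. Mamdc2, a MAM domain protein, read 6.36 and 6.82 in polysomal control arrays and 7.15 and 7.31 with TGFβ, against 9.34 and 9.40 and then 5.27 and 5.12 in total RNA. The changes differed by 4.81 ± 0.22 (SE, n = 2 per group, limma adjusted p = 7.28e-07), with polysomes slightly up and total RNA far down. Mamdc2 ended under the filter level of 5.53 on both total RNA TGFβ arrays, so the size of that fall depends on the floor. Car6, a secreted carbonic anhydrase, read 10.63 and 10.59 in polysomal control arrays and 10.34 and 10.30 with TGFβ, against 10.84 and 11.05 and then 7.12 and 6.92 in total RNA, a difference of 3.63 ± 0.21 (SE, n = 2 per group, limma adjusted p = 2.51e-06). S100a8 fell in polysomes, while its total RNA lay under the filter level of 5.53 on all 4 arrays, with 5.10 and 4.91 in control and 5.48 and 5.22 in TGFβ arrays. At such low levels a fall in total RNA could be hidden in part, and the difference between the changes depends on the floor. It was -2.92 ± 0.23 (SE, n = 2 per group, limma adjusted p = 2.73e-05).

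Noncoding RNAs were part of the same comparison. Of 22 measured, 12 were called lower in total RNA (13% of all genes) and 12 were higher in polysomal than in total RNA (9.03%). Snhg12, a snoRNA host transcript, read 13.16 and 13.21 in polysomal control arrays and 13.28 and 13.33 with TGFβ, against 13.04 and 13.08 and then 10.70 and 10.67 in total RNA. Its changes differed by 2.49 ± 0.13 (SE, n = 2 per group, limma adjusted p = 1.39e-06). Neat1, the scaffold RNA of nuclear paraspeckles, read 11.30 and 11.14 in polysomal control arrays and 12.01 and 12.05 with TGFβ, and 11.63 and 11.70 and then 10.09 and 10.10 in total RNA, a difference of 2.38 ± 0.14 (SE, n = 2 per group, limma adjusted p = 2.51e-06). A transcript known as nuclear thus gave a strong signal in the polysomal fractions, and the second Neat1 probe set kept stood at -0.37 in polysomes and -0.05 in total RNA. Snhg3 went the other way, with changes of 0.46 in polysomes and 2.30 in total RNA (limma adjusted p = 2.92e-04 for the difference).

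The last comparison asked where the E1KD polysomal change differed from that of NMuMG cells, in which hnRNP E1 was not knocked down. In NMuMG polysomes 4899 of 25765 probe sets (19%) passed, 3306 higher (12.8%) and 1593 lower (6.18%). The change differed between the lines for 1021 probe sets (3.96%) by the interaction test in limma, 376 higher (1.46%) and 645 lower (2.5%) in E1KD, and for 515 and 444 with centring on Actb and Gapdh. This count moved with single arrays. It was 5 and 8 without either NMuMG TGFβ array, 464 and 1197 without either NMuMG control, 1 and 30 without either E1KD control, and 1 and 30 without either E1KD TGFβ array. Over genes the 2 changes correlated at r = 0.25 with a slope of 0.14. The 1807 genes higher in NMuMG had a median change of 0.85 there and 0.15 in E1KD, with 70.6% above 0 in E1KD. The 953 genes lower in NMuMG had medians of -0.78 there and -0.05 in E1KD, with 58.2% below 0.

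**Figure D4:**
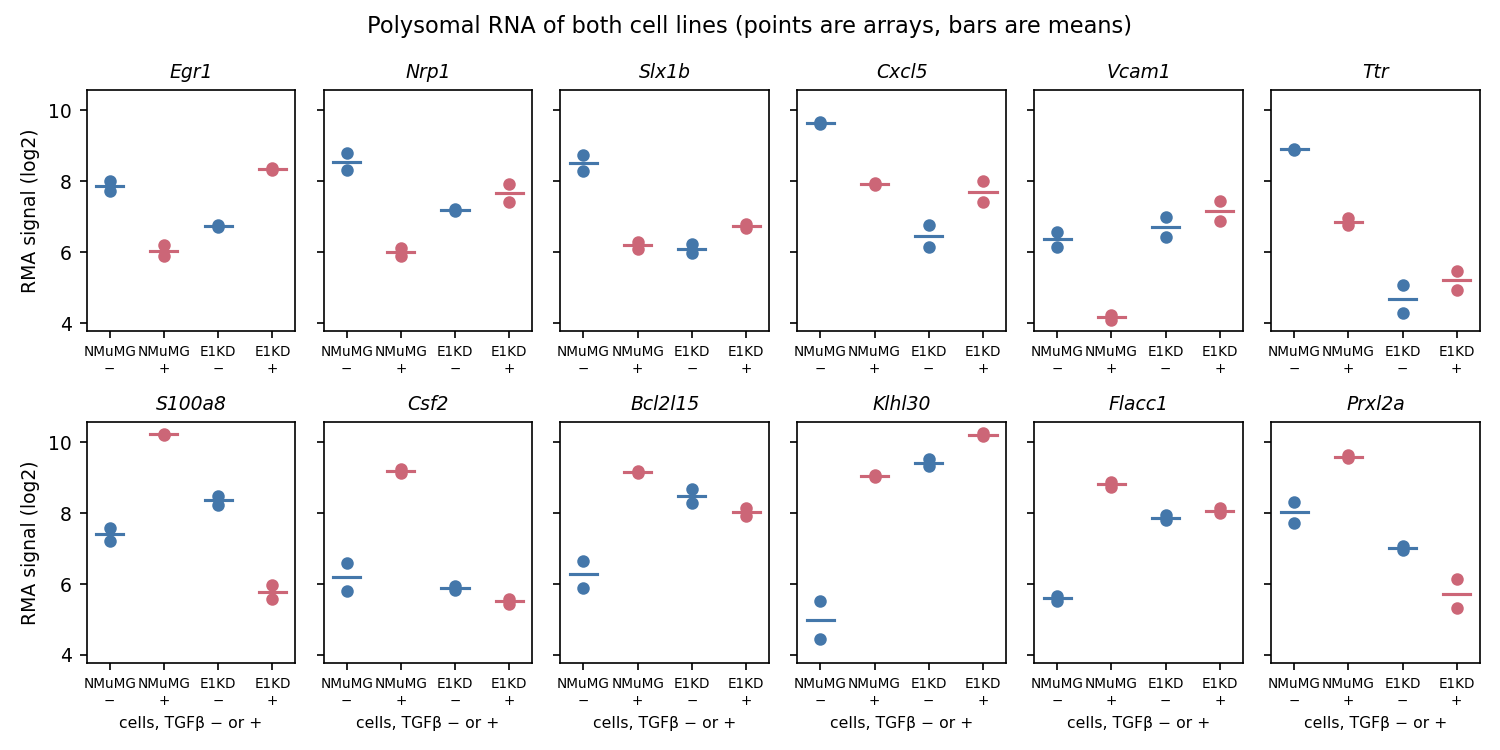
RMA signal (log2) in polysomal RNA of NMuMG and E1KD cells without (−, blue) and with TGFβ (+, red) for the 12 probe sets with the widest difference in TGFβ change between the lines, each point an array and each bar a group mean. The changes of S100a8 and Egr1 run in opposite directions in the 2 lines, while Klhl30 and Flacc1 rise in NMuMG from a control level far below that of E1KD.

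S100a8 and Egr1 changed in opposite directions in the 2 lines. In NMuMG polysomes S100a8 rose from 7.59 and 7.21 to 10.23 and 10.21, a change of 2.82 against -2.58 in E1KD, and the changes differed by -5.40 ± 0.28 or 42.1-fold (SE, n = 2 per group, limma adjusted p = 0.00347). It passed in all 8 fits that left out 1 array. Egr1 fell in NMuMG polysomes from 8.02 and 7.73 to 6.19 and 5.89, a change of -1.83 against 1.60 in E1KD. The changes differed by 3.43 ± 0.23 or 10.8-fold (SE, n = 2 per group, limma adjusted p = 0.0053), past the threshold in 6 of the 8 fits. Cxcl5, a neutrophil-attracting chemokine, read 9.62 and 9.67 and then 7.90 and 7.95 in NMuMG, and 6.16 and 6.78 and then 7.41 and 8.01 in E1KD, where its own change of 1.24 missed the threshold (limma adjusted p = 0.156). Its changes differed by 2.96 ± 0.36 (SE, n = 2 per group, limma adjusted p = 0.0181). Nrp1, a co-receptor of semaphorins and VEGF, fell in NMuMG from 8.80 and 8.31 to 6.12 and 5.89 and read 7.17 and 7.23 and then 7.42 and 7.91 in E1KD, a difference of 3.01 ± 0.32 (SE, n = 2 per group, limma adjusted p = 0.0119), with its other probe sets between -0.25 and 1.37.

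Other genes rose in NMuMG polysomes toward or past a level that E1KD polysomes already had without TGFβ. Klhl30, a kelch-like protein, rose in NMuMG from 4.44 and 5.52 to 9.06 and 9.03 and read 9.32 and 9.53 and then 10.17 and 10.25 in E1KD. The changes differed by -3.28 ± 0.44 (SE, n = 2 per group, limma adjusted p = 0.021). Flacc1 rose in NMuMG from 5.67 and 5.52 to 8.74 and 8.89 and read 7.95 and 7.80 and then 8.14 and 7.99 in E1KD, a difference of -3.03 ± 0.20 (SE, n = 2 per group, limma adjusted p = 0.0053). Csf2, the cytokine GM-CSF, rose in NMuMG from 6.60 and 5.81 to 9.14 and 9.25 but stayed at 5.95 and 5.84 and then 5.58 and 5.45 in E1KD, so it did not share this pattern of levels. Its changes differed by -3.37 ± 0.34 (SE, n = 2 per group, limma adjusted p = 0.0115).

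Of the 30 TGFβ-induced genes 20 were called higher in NMuMG polysomes (14.3% of all genes) at a median of 0.94, and 8 had a lower change in E1KD by the interaction test (2.82% of all genes did). Those 8 were Ccn2, Ccn1, Fn1, Klf10, Bhlhe40, Pdgfb, Ltbp1 and Edn1. When any 1 polysomal array was left out, 0 to 7 of the list passed. Fn1 rose in NMuMG polysomes from 8.57 and 8.38 to 9.77 and 9.77, still below each E1KD array, and its changes differed by -1.86 ± 0.18 (SE, n = 2 per group, limma adjusted p = 0.0115). The 36 genes that the study listed as translationally controlled by hnRNP E1, its BAT genes, were picked in part on these arrays. The study required their polysomal to monosomal ratio to rise with TGFβ in NMuMG and to change little in E1KD. Neither their direction nor their counts in the 2 lines are thus independent evidence. Of the 36, 28 were called higher in NMuMG polysomes (14.3% of all genes) at a median of 1.05. In E1KD none was called (0.0635% of all genes) at a median of 0.09, and 14 had a lower change there than in NMuMG (2.82% of all genes). Inhba, the activin A subunit, read 8.16 and 8.17 and then 9.54 and 9.50 in NMuMG, and 10.47 and 10.50 and then 10.40 and 10.48 in E1KD. Its E1KD groups overlapped above all NMuMG values, and the changes differed by -1.40 ± 0.17 (SE, n = 2 per group, limma adjusted p = 0.0181). Msn, the membrane-actin linker moesin, read 11.06 and 10.89 and then 11.68 and 11.71 in NMuMG, and 12.77 and 12.81 and then 12.66 and 12.63 in E1KD, a difference of -0.87 ± 0.18 (SE, n = 2 per group, limma adjusted p = 0.047). Prxl2a, a peroxiredoxin-like protein, read 9.74 and 9.53 in E1KD control and 8.68 and 8.73 in TGFβ arrays, a change of -0.93 (limma adjusted p = 0.0955), and rose in NMuMG by 1.54. Its changes differed by -2.48 ± 0.20 (SE, n = 2 per group, limma adjusted p = 0.00812). When any 1 of the 8 polysomal arrays was left out, the number of these 36 genes that passed ranged from 0 to 18.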

How the data were processed

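RNA was hybridised to an Affymetrix mouse genome array, 1 array per sample. The authors made the deposited log2 values with RMA in Affymetrix Expression Console, per the labels and methods, and their MAS5 detection calls were not used here. RMA shares its normalization over all 32 arrays and cannot show a change of total RNA amount. Groups came from titles and source names. A probe set was kept if it exceeded the median of 16 polysomal and total RNA arrays (5.53) in at least 4. The array's 64 control probe sets were set aside. Of the 45037 other probe sets, 34945 carry 1 gene symbol, 932 several and 9160 none, by the platform annotation updated to current RefSeq symbols. In the gene lists and in counts over genes, a gene was read from its brightest probe set by mean. Genes named because they were called or had a wide difference were read from their called probe set of largest change.

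Tests used limma (version 3.58.1, lmFit and eBayes, 2-sided) under R 4.3.3. The polysomal change and the difference from NMuMG were fitted on 8 polysomal arrays (4 residual degrees of freedom), the total RNA change and the difference from it on 16 arrays (8). The Benjamini-Hochberg adjustment ran over all probe sets kept, with a threshold of 0.05. In the 16-array fits 1 spread is estimated over both pools, which understates that of the polysomal arrays. Precision rests on 2 arrays per group, and depth has no meaning for arrays. Genes were named if the study's text names them, or if called with 1 symbol and groups that do not overlap (up to 15 per direction). Those among the 6 widest differences per direction in each comparison, by the same limits and with 1 probe set per gene, were named too. So were members called in 1 of 33 gene lists (up to 4). Further members of lists were named for illustration after their values were seen. The members and lists were chosen with earlier results of these data known. Alternatives were no filter and a stricter one, quantile normalization, centring on the median or on the array's Actb and Gapdh 3′ control probe sets, a variance trend, array weights, a replicate block, a 2-fold limit, other sets of arrays and leaving out each array. The scripts were tested on simulated data. Figures were drawn with matplotlib 3.10.9 in Python 3.11.15.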

Additional observations from a re-analysis of the deposited data

Results flagged for a closer look

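The TGFβ change differed between E1KD polysomal and E1KD total RNA for 3749 probe sets by the interaction test in limma, and between E1KD and NMuMG polysomal RNA for 1021. The values that follow are differences between 2 changes on the log2 scale, polysomal E1KD less the other, each past a limma adjusted p of 0.05. They are the widest among probe sets with 1 gene symbol whose changes do not overlap, 1 probe set per gene. Probe sets without a single symbol are left out, such as 1 at -3.10 against NMuMG polysomes (limma adjusted p = 0.0201).

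Against total RNA, the widest positive differences were those of Mamdc2 (4.81), Prr32 (4.06), Car6 (3.63), Ddit3 (3.54), Avil (3.28) and Col4a4 (3.18). Prr32 fell in total RNA from 9.62 and 9.74 to 5.37 and 5.23, while its polysomal arrays read 7.31 and 6.96 and then 6.75 and 6.88. Avil, the actin-binding protein advillin, fell in total RNA from 8.44 and 8.74 to 5.16 and 5.36 with overlapping polysomal groups, as did Col4a4, a basement membrane collagen chain, from 9.10 and 9.09 to 6.39 and 5.91. The widest negative differences were those of Kif23 (-3.23), AF067061 (-3.22), Gm20767 (-3.12), S100a8 (-2.92), Tcstv1 (-2.81) and Plk1 (-2.79). Kif23, a mitotic kinesin, was also read by a brighter probe set with a difference of -2.38. The probe set of Kif23 at -3.23, Gm20767 and Tcstv1 lay under the filter level of 5.53 on all 4 E1KD polysomal arrays, and S100a8 on all 4 total RNA arrays. These 4 differences thus depend on the floor and their order carries no weight. Mamdc2, Prr32 and Avil ended under the same level on both total RNA TGFβ arrays, so the size of their differences depends on it too. AF067061 rose in total RNA by 3.41, while its polysomal groups overlapped above that level. All 12 passed in each of the 8 fits that left out 1 array.

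Against NMuMG polysomes, the widest positive differences were those of Egr1 (3.43), Nrp1 (3.01), Slx1b (2.96), Cxcl5 (2.96), Vcam1 (2.64) and Ttr (2.56). Ttr lay under the filter level of 5.53 on all 4 E1KD polysomal arrays, so its difference sets a fall in NMuMG against the floor. Vcam1, an endothelial and stromal adhesion molecule, fell in NMuMG from 6.57 and 6.15 to 4.24 and 4.09, under the filter level, and overlapped in E1KD. Its other probe sets stood at 0.15 and 0.34. The widest negative differences were those of S100a8 (-5.40), Csf2 (-3.37), Bcl2l15 (-3.32), Klhl30 (-3.28), Flacc1 (-3.03) and Prxl2a (-2.85, a dimmer probe set than the one described above). S100a8 alone passed in all 8 fits that left out 1 array, Egr1 and Flacc1 in 6 each, and the others in 1 to 4.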

How the results depend on the processing

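With 2 arrays per group the counts of calls moved with the filter, the scaling and the estimate of spread. For the E1KD polysomal change, 17 probe sets became 50 with a stricter filter, 5 with quantile normalization, 61 with Actb and Gapdh centring, 602 with a variance trend, 40 with array weights, 1731 with 16 arrays and 1 with only the arrays compared. Leaving out an array gave 1 to 8. Without a filter and with median centring it was 16. The difference from total RNA, 3749, became 1316 with the 2-fold limit and 2012 to 3312 without an array. The total RNA change, 6367, became 10357 with array weights, 1265 with the 2-fold limit and 3858 to 4068 without an array, and its split was 2512 higher and 4404 lower with Actb and Gapdh centring. The difference from NMuMG, 1021, became 361 without a filter, 1854 with a stricter one, 3177 with a variance trend, 5034 with 16 arrays and 1 to 1197 without an array. The cause of these shifts was not tested. Replicate numbers are shared between groups, but the labels do not say that they mark shared cultures, and same-numbered E1KD polysomal arrays deviated together at r = 0.12. With the replicate number as a block, 8 probe sets were called for the polysomal change, 248 for the difference from NMuMG, 3560 for that from total RNA and 6243 for total RNA. No called gene changed sign in any alternative.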

Other observations

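Beyond the comparisons above, no gene was called in E1KD polysomes in the following groups. The 10 BMP and Id genes had a median change of 0.23, with TGFβ arrays above both controls in 5 (26.2% of all genes). The 10 mammary luminal and milk genes had a median of -0.21, with 9 below 0 and TGFβ arrays below both controls in 5 (22.3% of all genes). The 38 chemokine, cytokine and interferon response genes had a median change of -0.01, with Irf1, an interferon-induced transcription factor, at 8.01 and 7.78 in the control and 8.73 and 8.50 with TGFβ (0.72, limma adjusted p = 0.156). The 31 glycolysis and hypoxia genes had TGFβ arrays below both controls in 17 cases (22.3% of all genes), at a median of -0.09, which was 0.02 with Actb and Gapdh centring. Pfkl, a phosphofructokinase, read 8.80 and 8.91 in the control and 8.03 and 8.25 with TGFβ (-0.71, limma adjusted p = 0.153), while Hk2, a hexokinase, read 9.54 and 9.67 and then 10.04 and 10.11 (0.47, limma adjusted p = 0.214). Id2, an inhibitor of bHLH factors, read 9.04 and 9.11 and then 9.56 and 9.74, a change of 0.58 against -1.08 in NMuMG polysomes, and the difference passed (limma adjusted p = 0.0183).

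Genes that mark the parental line were looked at after the falls of Prdx4 and Krt7 had been seen. The set was the 46 genes at least 8-fold higher in NMuMG than in E1KD total RNA controls. Those arrays share the normalization, the filter and the choice of probe set with the polysomal ones. Of the 46, 39 (84.8%) lay below 0 in the E1KD polysomal change, against 47.9% of all genes, at a median of -0.38. At least 2-fold lower were 9, out of 16 such among all 12607 genes. As the falls of Prdx4 and Krt7 prompted this set, its counts are not independent evidence. The median of the 46 in the NMuMG polysomal change was -0.32. Of the 75 genes at least 8-fold lower in NMuMG than in E1KD total RNA controls, 26 (34.7%) lay below 0, at a median of 0.17, and none was at least 2-fold lower. What these genes share beyond their level was not tested.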
